A study of Mus musculus with 2 samples.

Results

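The 8 imprinted genes Dlk1, Meg3, Ndn, Magel2, Snrpn, Peg3, Peg10 and Nap1l5, chosen by name out of 32285 genes in the count tables, were followed across brain regions in 2 spatial transcriptomes. Each transcriptome came from 1 coronal section of 1 mouse on the 10x Visium array, whose barcoded spots, each wider than a cell, yield counts of unique molecular identifiers (UMIs), a tally of captured RNA. CNO, the ligand of the designer receptor hM3Dq, was given to both mice, which carried that receptor, so no untreated section was measured. Mouse 1 carried the genotype label of a C57BL/6J control and mouse 2 that of a CRISPR-Cas9 edited isogenic control, and they form 1 group (n = 2). The sections lay 1.9 mm posterior to bregma and the injection at 4.6 mm posterior, and the sides of each brain had been cut away to make the section smaller.

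Imprinted genes are transcribed mainly from the copy inherited from one parent, and many sit in clusters that share a control element. The hypothalamus, which governs feeding, sleep, body temperature and hormone release, expresses many of them, and loss of the paternal copies of the cluster that holds NDN, MAGEL2 and SNRPN in humans causes Prader-Willi syndrome, with feeding and growth disturbance. Of the 8 genes, Meg3 is known to be expressed from the maternal copy and the others from the paternal one. The counts hold no information on the parental allele.

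The genes lie in 4 known imprinted domains and 1 further locus of the mouse genome (mm10; RefSeq coordinates on GRCm38.p6). Dlk1 (chr12:109452485-109463336), a membrane protein related to Notch ligands, is the neighbour of Meg3 (chr12:109540996-109571729), a long non-coding RNA. Ndn (chr7:62348277-62349928) and Magel2 (chr7:62376979-62381640) encode proteins of the MAGE family and share the Prader-Willi domain with Snrpn (chr7:59982495-60450177), which encodes a protein of the splicing machinery. Peg3 (chr7:6703892-6730462) encodes a zinc finger protein, Peg10 (chr6:4747306-4760517) a protein derived from a retrotransposon, and Nap1l5 (chr6:58905233-58907126) a protein related to nucleosome assembly factors. Reads of Snurf, which shares transcripts with Snrpn, appeared nowhere: the Snurf row held 0 UMIs in both mice. How reads of the shared transcript were assigned is not given in the sources used here.

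RefSeq upstream windows (GRCm38.p6) are shown for the 5 genes with a window ending just before the gene's outermost start, since they pair genes high in the hypothalamic spots (Ndn, Magel2, Nap1l5) with the genes whose level there was not set apart (Meg3, Snrpn). Each runs 5′ to 3′ over 250 bases before the start: Ndn chr7:62348027-62348276 plus strand, Magel2 chr7:62376729-62376978 plus strand, Nap1l5 chr6:58907127-58907376 minus strand, Meg3 chr12:109540746-109540995 plus strand and Snrpn chr7:60450178-60450427 minus strand. Capitals mark a cAMP response element (TGACGTCA) in Meg3 and the core motif of the factor NRF1 (CGCATGCG) in Ndn and Snrpn.
Ndn: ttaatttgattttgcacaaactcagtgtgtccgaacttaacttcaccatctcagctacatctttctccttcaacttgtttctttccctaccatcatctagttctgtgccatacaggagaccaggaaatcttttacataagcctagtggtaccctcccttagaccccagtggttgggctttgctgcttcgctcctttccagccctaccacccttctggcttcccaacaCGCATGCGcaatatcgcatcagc
Magel2: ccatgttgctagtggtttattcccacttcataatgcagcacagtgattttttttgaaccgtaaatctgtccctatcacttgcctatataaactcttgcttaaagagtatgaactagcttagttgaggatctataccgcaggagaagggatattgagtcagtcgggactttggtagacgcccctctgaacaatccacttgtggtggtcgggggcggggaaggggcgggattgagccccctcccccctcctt
Nap1l5: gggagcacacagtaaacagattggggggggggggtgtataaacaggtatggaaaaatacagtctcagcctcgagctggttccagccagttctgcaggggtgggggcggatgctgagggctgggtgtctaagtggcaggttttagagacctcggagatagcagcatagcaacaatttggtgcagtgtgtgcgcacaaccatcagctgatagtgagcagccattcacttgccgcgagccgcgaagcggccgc
Meg3: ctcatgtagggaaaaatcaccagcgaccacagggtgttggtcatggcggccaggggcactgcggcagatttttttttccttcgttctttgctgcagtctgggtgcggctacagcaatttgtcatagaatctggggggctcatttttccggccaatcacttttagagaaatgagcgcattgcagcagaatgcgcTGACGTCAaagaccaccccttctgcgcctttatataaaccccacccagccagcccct
Snrpn: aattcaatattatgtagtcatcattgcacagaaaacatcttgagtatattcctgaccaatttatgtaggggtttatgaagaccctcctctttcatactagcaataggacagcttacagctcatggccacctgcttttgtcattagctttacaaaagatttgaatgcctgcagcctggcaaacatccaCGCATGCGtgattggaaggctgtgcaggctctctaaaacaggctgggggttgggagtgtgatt
Each motif reads the same on both strands and the motifs do not overlap. TGACGTCA was found in 508 of 32817 upstream windows of all genes (1.55%), and CGCATGCG in 506 (1.54%). Over all RefSeq starts of 7 of the 8 genes (11 windows), Meg3 and Peg3 had a window with TGACGTCA, and Ndn and Snrpn had windows with CGCATGCG. Not every window of these genes held the motif. The Meg3 window at chr12:109545148-109545397 had no TGACGTCA, and the Snrpn window at chr7:60005200-60005449 had no CGCATGCG. The motifs were chosen after their matches were seen, and a match is a description of the letters. The motif-bearing genes fell in both groups described next: Ndn and Peg3 were higher in hypothalamic spots, while Meg3 and Snrpn were not set apart.

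The sections differed in depth. Over 3715 spots under tissue, 30671753 UMIs were counted in mouse 1 (median 7547 per spot). For mouse 2 the 3549 spots yielded 55315952 (median 14663). Spots with at least 500 UMIs were grouped into 17 clusters without any imprinted gene, clusters were named from fixed marker sets, and named clusters were joined into 5 region classes. Spot numbers in mouse 1 and mouse 2 were 484 and 527 for the hypothalamic class, 1015 and 1044 for the thalamic, 628 and 623 for the hippocampal, 592 and 415 for the cortical and 479 and 462 for the white matter class. The sections shared 3369 spot barcodes, which is set by the array design. A spot can hold several cells of different types, and more cells of a type cannot be told apart from more RNA per cell.

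The hypothalamic class was made of 2 clusters in different places. The Hcrt-Pmch region carried 12 of 18 hypothalamus markers and held 391 and 321 spots, with a median of 6.06 and 5.98 spot pitches from the midline. The Penk-Hap1 region carried 8 of 18 and held 93 and 206 spots, of which 97.8% and 99.5% lay over 15 pitches from the midline, against 4.60% and 1.56% of the Hcrt-Pmch spots. It sits at the lower lateral corners of both sections, where a hypothalamic origin was not tested, and its share of the class was larger in mouse 2. All 18 hypothalamus markers had their highest mean level in the hypothalamic class, among them the peptide genes Pmch, at 9200 CPM (UMIs scaled to 1 common total per library), and Hcrt, at 2877 CPM.

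**Figure D1:**
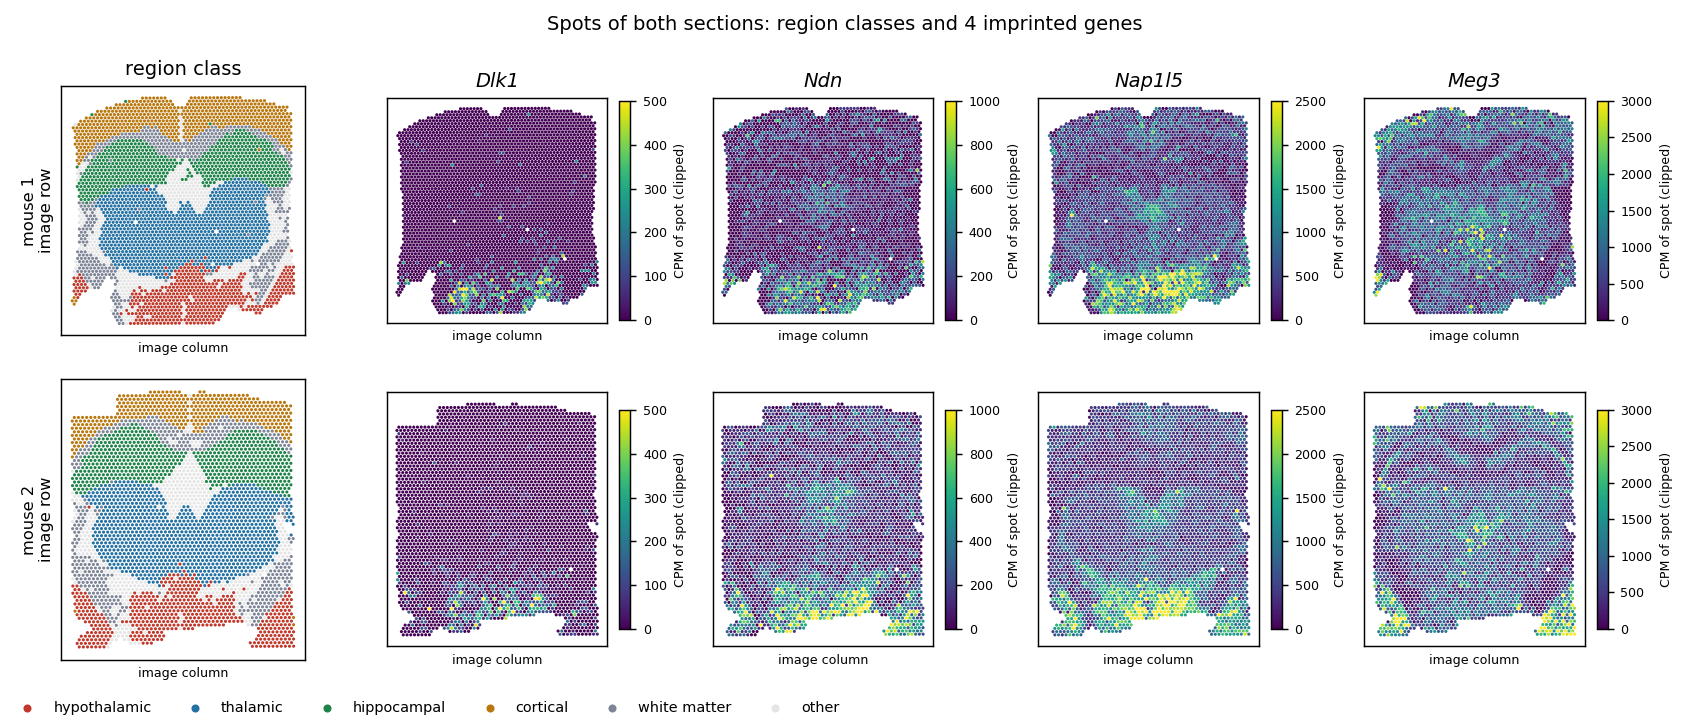
Spots of both sections (mouse 1 above, mouse 2 below) at their image positions, coloured by region class and by the level of 4 genes in CPM, clipped at the top of each colour bar. Dlk1 is seen almost only in hypothalamic spots, where the class averaged 117 CPM, while Meg3 is seen in all classes and is lowest in white matter, and its brightest spots in mouse 2 lie in the lower corners.

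Of the 8 genes, 6 rose in the hypothalamic class against each of the other 4 classes: Dlk1, Magel2, Peg10, Ndn, Nap1l5 and Peg3. Their differences ran from 0.79 on the log2 scale (Peg3 against thalamic spots) to 6.39 (Dlk1 against hippocampal spots). Meg3 and Snrpn did not share this pattern: Snrpn was not called against thalamic or hippocampal spots and was called lower against cortical spots, and Meg3 was called only against hippocampal and white matter spots. Enrichment in the hypothalamus therefore describes 6 of the 8 genes. UMIs were summed per mouse and class, which gave 10 libraries, and tested with edgeR's quasi-likelihood test, blocked by mouse, at an adjusted p (Benjamini-Hochberg) under 0.05.

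Against thalamic spots 6 of the 8 genes were called higher and 0 lower, where 25.5% of all 14153 genes tested were called higher and 25.8% lower, 51.2% in either direction. Against hippocampal spots 7 were called higher and 0 lower, with 18.7% of all genes called higher and 20% lower, 38.7% in all. Against cortical spots 6 were called higher and 1 lower (Snrpn), with 17.8% and 19.3% over all genes, 37.1% together. Against white matter spots all 8 were called higher, with 21.9% higher and 26.8% lower over all genes, 48.7% together. The median difference of the 8 genes was 1.84, 2.16, 1.64 and 2.001 on the log2 scale in these 4 comparisons, and that of all genes tested was between -0.05 and 0.01. The comparisons share the hypothalamic libraries, and no call of the 6 genes changed when the class was limited to the medial Hcrt-Pmch region.

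**Figure D2:**
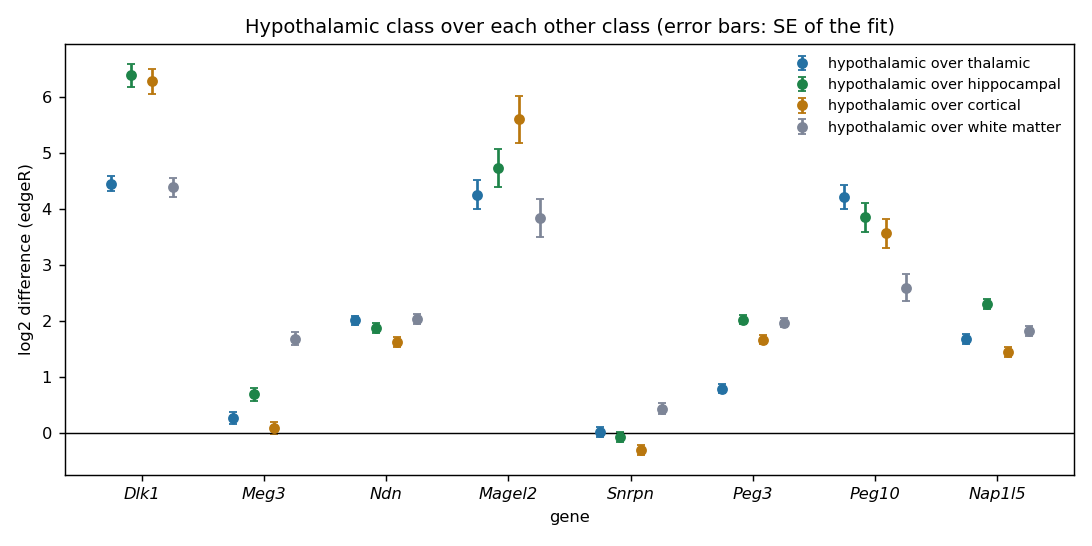
Difference on the log2 scale between the hypothalamic class and each other class for the 8 genes (edgeR, 10 libraries of 2 mice, error bars are the SE of the fit). Dlk1, Magel2, Peg10, Ndn, Nap1l5 and Peg3 lie above 0 in all 4 comparisons, while Snrpn lies near 0 in 2, below it against cortical and above it against white matter spots.

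Dlk1 was high in hypothalamic spots and low elsewhere. It measured 134 and 100.3 CPM in hypothalamic spots of mouse 1 and mouse 2 (497 and 616 UMIs), against 5.87 and 5.29 in thalamic, 1.75 and 1.10 in hippocampal, 1.998 and 1.01 in cortical and 3.33 and 5.77 in white matter spots. Both hypothalamic values were far above every value of the other classes, in which few UMIs were counted (between 6 and 107 per class and mouse). The fitted difference was 4.46 ± 0.13 (SE) against thalamic, 6.39 ± 0.21 against hippocampal, 6.28 ± 0.22 against cortical and 4.39 ± 0.18 against white matter spots, with adjusted p (edgeR) between 1.04e-23 and 5.31e-20. With the Penk-Hap1 region alone the difference against thalamic spots was 3.12, below the 4.28 of Magel2 and the 3.78 of Peg10. Those 2 values rest on 5 Magel2 and 7 Peg10 UMIs in mouse 1, and on 59 and 52 in mouse 2.

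Magel2, a regulator of protein ubiquitination, was also highest in hypothalamic spots, at a low level. It measured 17.5 and 23.6 CPM in hypothalamic spots (65 and 145 UMIs), against 1.47 and 0.989 in thalamic, 1.25 and 0.549 in hippocampal, 0.2497 and 0.505 in cortical and 1.39 and 1.22 in white matter spots. The other classes held between 1 and 20 UMIs per mouse, so the order among them was not detectable at this depth. Magel2 passed edgeR's low-count filter only through the hypothalamic libraries, so its being tested rests on its level there. The fitted difference was 4.26 ± 0.26 (SE) against thalamic, 4.74 ± 0.34 against hippocampal, 5.601 ± 0.41 against cortical and 3.83 ± 0.34 against white matter spots, with adjusted p (edgeR) of at most 1.99e-11.

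Peg10 measured 29.9 and 25.3 CPM in hypothalamic spots (111 and 155 UMIs), against 1.27 and 1.68 in thalamic, 2.25 and 1.65 in hippocampal, 2.25 and 2.19 in cortical and 3.89 and 4.02 in white matter spots. Here white matter was the next highest class. The fitted difference was smallest against white matter spots, at 2.60 ± 0.24 (SE), and was 4.22 ± 0.21, 3.85 ± 0.25 and 3.56 ± 0.26 against thalamic, hippocampal and cortical spots, with adjusted p (edgeR) of at most 5.15e-11.

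Ndn, which encodes necdin, a protein that restrains the cell cycle and is abundant in postmitotic neurons, was present everywhere and higher in hypothalamic spots. It measured 373 and 560 CPM there, against 99.0 and 151 in thalamic, 100.4 and 155 in hippocampal, 121 and 174 in cortical and 69.5 and 134 in white matter spots. The value in mouse 2 was the higher one in every class, yet both hypothalamic values exceeded all others. The fitted difference was 2.01 ± 0.08 (SE), 1.87 ± 0.09, 1.62 ± 0.09 and 2.03 ± 0.09 against thalamic, hippocampal, cortical and white matter spots, with adjusted p (edgeR) of at most 2.13e-16.

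Nap1l5 was the most even between mice. It measured 1540 and 1538 CPM in hypothalamic spots, against 512 and 534 in thalamic, 296 and 326 in hippocampal, 545 and 557 in cortical and 378 and 404 in white matter spots. Hypothalamic spots stood well above the rest, and the fitted difference was 1.67 ± 0.09 (SE), 2.30 ± 0.09, 1.45 ± 0.09 and 1.81 ± 0.09 in the same order of classes, with adjusted p (edgeR) of at most 5.63e-15.

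Peg3, a zinc finger repressor with a role in maternal care and feeding in mice, had a second level in the thalamus. It measured 374 and 424 CPM in hypothalamic spots, against 233 and 265 in thalamic, 87.9 and 107 in hippocampal, 118 and 127 in cortical and 81.1 and 99.8 in white matter spots. The difference was 0.79 ± 0.07 (SE) against thalamic spots, where it was the smallest of the 6 genes, and 2.02 ± 0.08, 1.67 ± 0.08 and 1.97 ± 0.09 against the other 3 classes, with adjusted p (edgeR) of at most 8.23e-11.

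Meg3 did not follow these genes. It measured 764 and 1348 CPM in hypothalamic spots, against 958 and 890 in thalamic, 582 and 700 in hippocampal, 924 and 969 in cortical and 250 and 327 in white matter spots. In mouse 1 the hypothalamic value was below the thalamic and cortical ones, and in mouse 2 it was the highest of the 5. The difference was 0.26 ± 0.11 (SE, adjusted p = 0.0523, edgeR) against thalamic and 0.09 ± 0.11 (adjusted p = 0.60) against cortical spots, and 0.69 ± 0.11 and 1.68 ± 0.12 against hippocampal and white matter spots, where it was called higher. Against thalamic spots it was 0.65 in mouse 2 alone and -0.10 in mouse 1 alone. With the class limited to the Hcrt-Pmch region it was -0.04 (adjusted p = 0.78), and with the Penk-Hap1 region alone it was 0.83 (adjusted p = 3.10e-06), so the value depended on which cluster was used.

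Snrpn showed the flattest profile. It measured 551 and 665 CPM in hypothalamic spots, against 556 and 757 in thalamic, 566 and 713 in hippocampal, 652 and 820 in cortical and 330 and 483 in white matter spots. Apart from the lower white matter level, the classes overlapped between mice. The difference was 0.01 ± 0.09 (SE, adjusted p = 0.94, edgeR) against thalamic, -0.07 ± 0.09 (adjusted p = 0.58) against hippocampal, -0.31 ± 0.09 (adjusted p = 0.0094) against cortical and 0.43 ± 0.10 (adjusted p = 3.87e-04) against white matter spots. Scaled to the summed counts of 15 pan-neuronal genes, the difference against cortical spots was 0.072 and that against white matter spots -0.12, neither past the threshold. That scaling moved the median of all genes by 0.39 and -0.55 in these comparisons, so relative to all genes Snrpn kept its place. The call against cortical spots was also lost with regions drawn by marker scores (-0.04), with only the 4 libraries compared (-0.30), with no mouse block (-0.32) and with the Penk-Hap1 region alone (-0.28).

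**Figure D3:**
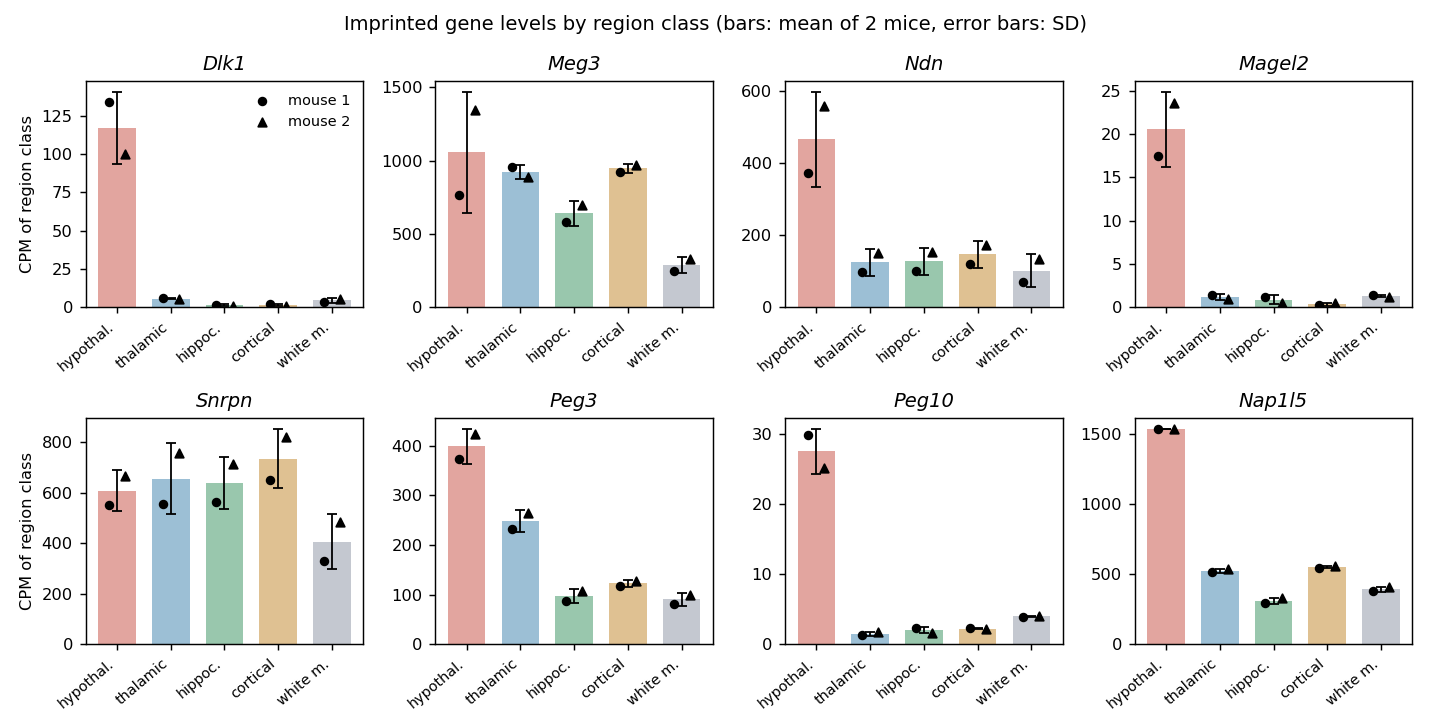
Level of each gene in the 5 region classes in CPM, with bars at the mean of 2 mice, error bars at the SD and points for each mouse. The hypothalamic bar is the tallest for 7 genes, although the Meg3 values of the mice there, 764 and 1348 CPM, span those of the thalamic and cortical classes, and for Snrpn the cortical bar is the tallest.

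Cell type markers also differed between the classes, and not all in the direction of the 6 genes. The summed level of the 15 pan-neuronal genes was 7305 and 8137 CPM in hypothalamic spots, against 10192 and 10458 in thalamic and 4467 and 4921 in white matter spots, with 3 of the 15 called higher and 9 lower against thalamic spots. The 6 inhibitory neuron genes summed to 655 and 895 CPM in hypothalamic spots, against 235 and 284 in thalamic spots, with 5 of 6 called higher. By contrast, the 2 excitatory neuron genes summed to 120 and 176 CPM in hypothalamic spots, against 634 and 704 in thalamic spots, with 2 of 2 called lower. The 9 oligodendrocyte genes summed to 5246 and 6574 CPM in hypothalamic spots, against 34894 and 39470 in white matter spots, with 9 of 9 called lower. No gene of these lists had 0 UMIs in any class of either mouse. With the pan-neuronal scaling all 6 genes stayed called higher in all 4 comparisons, and the part of the other lists was not tested.

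Detection per spot followed the levels. With every spot thinned to 3000 UMIs, Dlk1 was detected in 28.2% and 23.7% of hypothalamic spots, against 1.06% and 2.81% of white matter spots and 0.699% and 0.482% of cortical spots. Without thinning Magel2 was detected in 12.4% and 22.01% of hypothalamic spots, against 0.835% and 1.52% of white matter spots. With thinning Ndn was detected in 60.9% and 73.5% of hypothalamic spots, against 17.02% and 28.1% of white matter spots. Without thinning Dlk1 was seen in 47.9% and 50.1% of hypothalamic spots and in 2.09% and 5.84% of white matter spots, at median depths of 6630 and 10289 UMIs against 7147 and 11975. Thinning left out 16 and 3 hypothalamic spots and 9 and 0 white matter spots.

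Clusters outside the hypothalamic class differed among themselves. In the Pvalb-Six3 region, with 7 of 8 markers of the reticular thalamus and zona incerta set, Dlk1 was at 0.810 and 4.09 CPM and Magel2 had 0 UMIs in both mice. Ndn reached 237 and 371 CPM in the Gm5741-Gng8 region, which carried all 8 habenula markers. In the Necab1-Gbx2 region, a thalamic cluster within 3.34 and 3.36 pitches (median) of the midline, Nap1l5 reached 789 and 820 CPM, Peg3 269 and 341, and Meg3 1351 and 1287.

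Within the hypothalamic class the clusters differed gene by gene. In the Penk-Hap1 region, set against the Hcrt-Pmch region, Meg3 measured 1034 and 2095 CPM against 713 and 941, Dlk1 57.3 and 40.6 against 148 and 133, and Peg3 236 and 350 against 400.2 and 465. Dlk1 and Peg3 were thus lower at the lateral corners in both mice and Meg3 higher. Magel2 measured 8.42 and 27.2 CPM in the Penk-Hap1 region (5 and 59 UMIs) against 19.2 and 21.6 in the Hcrt-Pmch region, with the mice in opposite order. Snrpn measured 566 and 699 against 548 and 647.

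**Figure D4:**
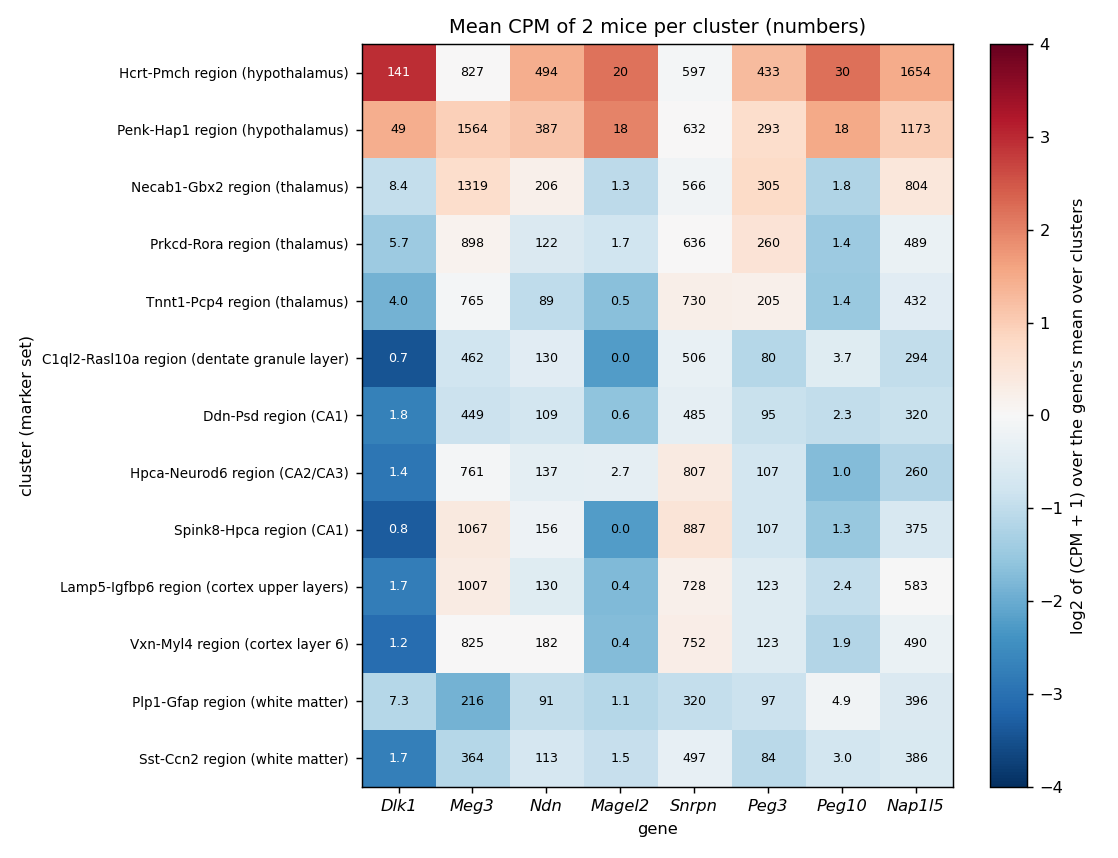
Mean level over 2 mice (numbers, CPM) of the 8 genes in each cluster of the 5 region classes, coloured by the log2 ratio of CPM + 1 to the gene's mean over these clusters, with the hypothalamic clusters at the top. Dlk1, Magel2 and Peg10 are high in both hypothalamic clusters, whereas Snrpn varies little and is highest in the Spink8-Hpca region.

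Over the 17 clusters (log2 of CPM + 5, mean of 2 mice) the profiles of Dlk1 and Magel2 correlated at r = 0.94, those of Dlk1 and Peg10 at 0.91 and those of Peg3 and Nap1l5 at 0.87. Neighbours on the chromosome were not alike throughout: Dlk1 and Meg3 correlated at 0.17, Magel2 and Snrpn at -0.04, and Ndn and Magel2 at 0.81. These are descriptions over clusters of the same 2 sections, which share libraries and depth. Among 10375 other genes, the profile most like that of Dlk1 and of Magel2 was Arhgap36 (r = 0.98 and 0.96), followed by the neuropeptide gene Nts (0.96 and 0.94), and then the orexin gene Hcrt for Dlk1 (0.96). For Peg10 they were Nts (0.94), Ngb (0.93) and Arhgap36 (0.93), and for Nap1l5 Tmem91 (0.94), Frs3 (0.93) and Resp18 (0.93). Ndn was most like Tspyl2 (0.93), Peg3 like Nrsn2 (0.93), Meg3 like Snhg11, itself a long non-coding RNA (0.98), and Snrpn like Asns (0.93).

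Outward from the edge of the hypothalamic class, Dlk1 and Nap1l5 were lower at each step. Farther than 2.5 spot pitches inside the edge, Dlk1 measured 119 and 94.6 CPM and Nap1l5 1581 and 1617 CPM. Dlk1 measured 143 and 105 CPM in hypothalamic spots within 2.5 spot pitches of the edge, 47.8 and 37.6 in other spots within 2.5 pitches outside it, 11.2 and 9.95 at 2.5 to 5.5 pitches, 5.41 and 6.47 in the next ring and 2.29 and 2.34 in all spots farther out. Nap1l5 measured 1515 and 1478 CPM inside the edge, 871 and 825 just outside it, 559 and 539 at 2.5 to 5.5 pitches, 486 and 504 in the next ring and 455 and 484 farther out. Meg3 had no such slope in mouse 1, with 767 CPM inside the edge and 718 outside it, whereas mouse 2 had 1161 and 687.

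**Figure D5:**
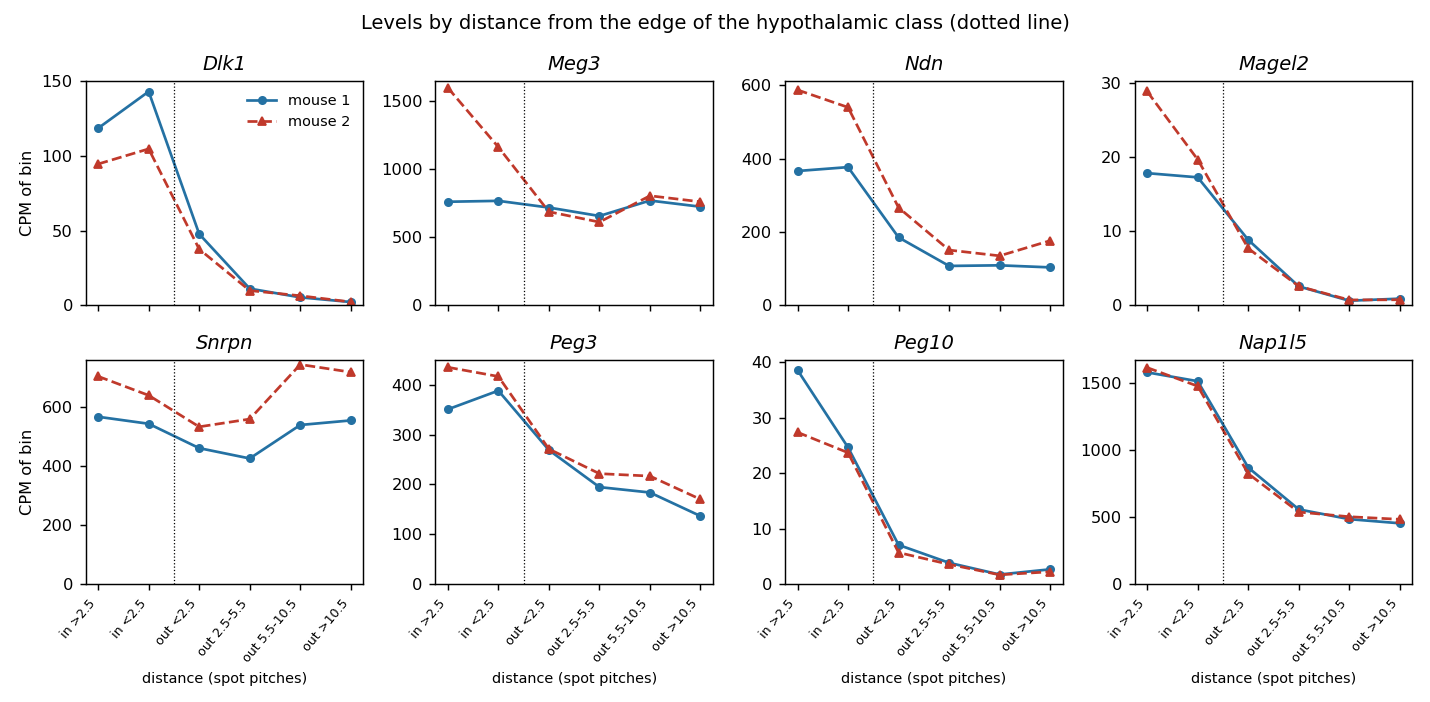
Level of each gene in CPM by distance in spot pitches from the edge of the hypothalamic class (dotted line, inside to the left), for mouse 1 and mouse 2. Dlk1, Magel2, Peg10, Ndn, Nap1l5 and Peg3 step down across the edge in both mice, and Snrpn is lowest within 5.5 pitches outside it.

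The hypothalamic class was also split by 8 neuropeptides, each with at least 100 UMIs per mouse, by setting the 10% of its spots with the highest share of a peptide's UMIs against the other spots of the class. Of 64 pairs of peptide and gene, 12 had a ratio above 1 and 5 a ratio below 1 in both mice by 95% intervals that cover counting error only. The ratios were computed for the 8 genes alone. The share over all genes is thus not known, and the counts cannot be read as particular to these genes. Spots are not replicates, so these are ratios without a test across mice. The split follows the 2 clusters of the class in part: 0 Hcrt-rich and 0 Pmch-rich spots lay in the Penk-Hap1 region, against 70.8% and 98.1% of Sst-rich spots. Ratios are therefore also given within the Hcrt-Pmch region alone, a choice made after seeing the data.

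Dlk1 went with Hcrt, which encodes orexin, the peptide of wake-promoting neurons of the lateral hypothalamus. It measured 281 and 209 CPM in Hcrt-rich spots, against 110.2 and 82.0 in the other hypothalamic spots, a ratio of 2.55 (2.08 to 3.10) in mouse 1 and 2.54 (2.13 to 3.03) in mouse 2. Within the Hcrt-Pmch region the ratio was 2.35 (1.896 to 2.89) and 1.997 (1.63 to 2.44). The same spots had Peg3 ratios of 1.42 and 1.26, Ndn ratios of 1.35 and 1.31 and Nap1l5 ratios of 1.16 and 1.24. Within the Hcrt-Pmch region these were 1.297 and 1.18 for Peg3, 1.28 and 1.21 for Ndn and 1.07 and 1.13 for Nap1l5, whose interval in mouse 1 held 1 (0.98 to 1.15). In Pmch-rich spots, Pmch being the gene of melanin-concentrating hormone, the Ndn ratio was 1.22 and 1.35. Within the Hcrt-Pmch region it was 1.16 and 1.25, and the interval in mouse 1 held 1 (0.98 to 1.37). Spots rich in Cartpt, the gene of the CART peptide, had Dlk1 ratios of 1.38 and 1.88, and Ndn ratios of 1.32 and 1.25. The Dlk1 ratios were 1.03 and 1.21 within the Hcrt-Pmch region, with intervals that held 1 in both mice.

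Gal-rich spots, named for the gene of galanin, had the highest Peg10 ratios, at 2.14 (1.18 to 3.66) and 1.71 (1.06 to 2.65), and Nap1l5 ratios of 1.298 and 1.44. Within the Hcrt-Pmch region the Peg10 ratios were 2.25 and 2.91. In Sst-rich spots, named for the gene of somatostatin, Dlk1 measured 80.4 and 35.5 CPM, against 139 and 107 in the other spots, with ratios of 0.58 (0.37 to 0.86) and 0.33 (0.20 to 0.51), and Peg3 had ratios of 0.63 and 0.86. Meg3 had ratios of 1.32 and 1.67 in Sst-rich spots and of 0.77 and 0.72 in Gal-rich spots. Within the Hcrt-Pmch region the Sst-rich ratios were 1.02 and 0.88 for Dlk1, 0.98 and 0.97 for Peg3 and 1.12 and 1.08 for Meg3, with intervals that held 1 in both mice. The Gal-rich ratios of Meg3 were 0.77 and 1.12 there.

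The mice differ in genotype label, with 1 mouse per label and so no test, and intervals that cover counting error only. Ndn in mouse 2 over mouse 1 had ratios between 1.44 and 1.93 in all 5 classes, with 1.502 (1.41 to 1.60) in hypothalamic spots. Snrpn had ratios between 1.21 and 1.46 in all 5. The Meg3 ratio was 1.76 (1.69 to 1.84) in hypothalamic spots and between 0.93 and 1.31 in the other classes. Nap1l5 had ratios between 0.998 and 1.10, and Dlk1 in hypothalamic spots one of 0.75 (0.67 to 0.85). The median gene had a log2 ratio of 0.16 in hypothalamic spots and between 0.01 and 0.11 in the other classes. In hypothalamic spots the 5th and 95th percentiles over genes were -0.31 and 0.61, a range that holds the Ndn ratio but not those of Meg3 and Dlk1. In the other classes the 95th percentile was between 0.33 and 0.51, below the Ndn ratio of each class on the log2 scale. The Penk-Hap1 region made up 206 of 527 hypothalamic spots in mouse 2 and 93 of 484 in mouse 1. Within the Hcrt-Pmch region the ratio was 1.32 (1.25 to 1.39) for Meg3, 0.90 (0.79 to 1.02) for Dlk1 and 1.53 (1.43 to 1.64) for Ndn. Within the Penk-Hap1 region that of Meg3 was 2.03 (1.86 to 2.21). Depth also differed between the mice, and its part was not tested.

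Within sections, image left was set against image right, since the study's receptor was injected and the labels speak of an ipsilateral side without saying which image side it is. In hypothalamic spots 0 of the 8 genes were called at an adjusted p under 0.05 (edgeR, 4 libraries), with 0.0769% of all genes called higher, 0.179% lower and 0.256% in either direction. Meg3 had the largest difference, at -0.21 (unadjusted p = 0.010, adjusted p = 0.52), and measured 727 and 1185 CPM on image left against 796 and 1508 on image right. It was the only one of the 8 with an unadjusted p under 0.05. In hippocampal spots 0 of the 5 genes that passed the low-count filter were called, with 0.0499% of all genes called higher, 0.0416% lower and 0.0916% in all, and their unadjusted p was at least 0.20. Dlk1, Magel2 and Peg10 did not pass it there, with at most 10 UMIs per side and mouse.

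Other imprinted genes, from 5 lists chosen with knowledge of these genes, put the 8 in context. Of 54 listed genes 52 were in the tables, and 43 passed the low-count filter, some only through their hypothalamic level, and were tested. Against thalamic spots 23 were called higher and 2 lower, against hippocampal 26 and 4, against cortical 26 and 5 and against white matter spots 25 and 7, to be read against the shares of all genes given above. Their median difference was 0.44, 0.65, 0.43 and 0.75 on the log2 scale.

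In the Dlk1 domain, 4 of 4 tested neighbours were called higher against thalamic spots, where 25.5% of all genes were, and 4, 3 and 4 against hippocampal, cortical and white matter spots, with 0 lower. Rtl1, a retrotransposon-derived gene expressed from the paternal copy like Dlk1, measured 4.04 and 3.91 CPM in hypothalamic spots against 0.196 and 0.148 in thalamic spots, a difference of 4.53 ± 0.55 (SE), and had 0 UMIs in the hippocampal and cortical classes of both mice. The non-coding RNAs Rian and Mirg, expressed from the maternal copy like Meg3, differed by 0.66 ± 0.08 and 0.55 ± 0.14, and Begain by 1.06 ± 0.10. In the Peg3 domain, 2 of 2 tested neighbours were called higher in all 4 comparisons, with Zim1 at 3.91 ± 0.31 and Usp29 at 0.91 ± 0.08 against thalamic spots. Rtl1 and Zim1 reached the level of the low-count filter in both mice only in the hypothalamic class. They were tested because of their level there, so these counts over tested neighbours are partly set by the filter.

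In the Peg10 domain, 3 of 7 neighbours were called higher and 0 lower against thalamic spots, where 25.5% and 25.8% of all genes were. Against hippocampal spots 2 were called higher and 1 lower, against cortical spots 3 and 2, and against white matter spots 4 and 3. Calcr, the calcitonin receptor, measured 13.7 and 20.4 CPM in hypothalamic spots against 0.489 and 0.395 in thalamic spots, a difference of 5.41 ± 0.32 (SE), and had 0 UMIs in white matter spots of both mice. It too passed the low-count filter only through the hypothalamic libraries. Asb4 differed by 3.11 ± 0.22 and Ppp1r9a by 0.22 ± 0.08. In the Prader-Willi domain 0 of 3 tested neighbours were called against thalamic spots: Ube3a differed by -0.14 ± 0.08, Snhg14 by -0.18 ± 0.09 and Atp10a by -0.64 ± 0.31 (adjusted p = 0.18, 0.094 and 0.082, edgeR). Against hippocampal, cortical and white matter spots 1, 2 and 2 of the 3 were called higher and 0 lower. Against cortical spots, where Snrpn was called lower, Ube3a differed by 0.28 ± 0.09 and Snhg14 by 0.31 ± 0.11 (adjusted p = 0.018 and 0.023, edgeR). No difference between the domains was tested. Outside these domains 14 of 27 tested genes were called higher and 2 lower, with Nnat at 3.07 ± 0.10, Slc38a4 at 2.89 ± 0.46 and Plagl1 at 2.65 ± 0.18.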

How the data were processed

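The matrices deposited by the authors hold counts, that is, whole UMIs of each gene at each spot. Per the file headers they come from Space Ranger (version 1.3.1), and per the submitters' processing notes the build is mm10. No source used here states how reads were aligned or which annotation release was counted. Spot positions gave distances and sides, and image scale factors were not used.

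Of 3715 spots under tissue in mouse 1, 3712 with at least 500 UMIs were used, and of 3549 in mouse 2, 3548. Counts were scaled to 10000 per spot, logged and z-scored within each section. The 2000 most variable genes, without 62 listed imprinted genes, gave 30 principal components, and 15 neighbours gave Leiden clusters at resolution 1 (scanpy 1.11.5 with igraph 0.11.9; matplotlib 3.10.9 drew the figures). A cluster took the marker set with the largest share among its 100 leading genes, with at least 3 markers, unless its 10 leading genes held more markers of another class. Z-scoring within sections and this naming were chosen after seeing the data, and the genes and lists with earlier results of these data known. Named genes were the 8 genes, per imprinted list up to 3 of the largest change past the threshold against thalamic spots, other genes of the 4 domains as values, and up to 3 genes of most similar profile.

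UMIs were summed per mouse and class, and genes passing filterByExpr (14153) were tested with edgeR 4.0.16 (R 4.3.3, limma 3.58.1; TMM, quasi-likelihood) with mouse as a block, which leaves 4 residual degrees of freedom, at a Benjamini-Hochberg threshold of 0.05. This low-count filter asks for enough counts in as many libraries as 1 class holds, so a gene high in 1 class alone is tested. Each block holds all classes of 1 mouse, since they come from 1 section. The common dispersion was 0.00295 with 27.8 prior degrees of freedom, so tests rest largely on a spread pooled over genes. SEs come from the fit. The block takes up level differences between the mice, so the p-values weigh region differences against their disagreement between 2 mice, moderated by that pooled spread. On simulated data, changes of 1 on the log2 scale were recovered in 76% to 86% and changes of 2 in 87% to 92%, with 4 to 7 false calls per comparison. The simulation gave every gene the common dispersion, changed few genes and held no difference between the mice. It checks that the fit runs as intended, and its rates do not carry over to these data. Alternatives were DESeq2 1.42.0 and those of the closing section. Intervals of 95% cover counting error only.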

Additional observations from a re-analysis of the deposited data

Results flagged for a closer look

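Peg10 lay higher on image left in hypothalamic spots of both mice and lower on image left in hippocampal spots of both mice, and the difference between the regions was not tested. In hypothalamic spots the fitted difference was 0.17 on the log2 scale (adjusted p = 0.94, edgeR), and the log2 ratios of CPM were 0.099 and 0.16. In hippocampal spots they were -0.32 and -0.89, on 4 and 5 UMIs on image left against 5 and 10 on image right.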

How the results depend on the processing

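Of the log2 differences of the 8 genes under all alternatives, 499 were counted as the same. Among these, tested values kept their call or, where they had none, gained none. Single-mouse values, which carry no test, were counted so where they lay within the SD between the mice. They were also counted so where they turned sign without a call in the main fit, as Meg3 did against thalamic spots in mouse 1. A further 13 single-mouse values moved by more than that SD, 7 values passed the threshold newly, 5 lost it and 2 turned. The lost or turned calls were those of Snrpn. Against cortical spots it was -0.04 with regions drawn by marker scores, -0.30 with only the 4 libraries compared, -0.32 with no replicate block and -0.28 with the Penk-Hap1 region alone, none past the threshold, so 0 genes were called lower there, and it turned to 0.072 with scaling to pan-neuronal counts, as did its difference against white matter spots (-0.12). With no replicate block the white matter difference was 0.41, not past the threshold. The Meg3 difference against thalamic spots passed the threshold with median-of-ratios size factors (0.28), without mitochondrial genes (0.27), with pan-neuronal scaling (0.57) and with the Penk-Hap1 region alone (0.83). The last 2 also brought Meg3 against cortical spots past it (0.47 and 0.65), and pan-neuronal scaling Snrpn against thalamic spots (0.32), where it moved the median of all genes by 0.32. With the Penk-Hap1 region alone, an alternative added after seeing the data, 3289 genes were called against hippocampal spots (5474 with both regions) and 3419 against cortical spots (5253), on fewer UMIs. Genes called between sides fell to 0 with no replicate block and 2 with DESeq2 in hypothalamic spots (30), and to 2 and 4 in hippocampal spots (11). Limited to the Hcrt-Pmch region, also added after seeing the data, ratios of peptide-rich over other spots crossed 1 for Dlk1 (1.02 in mouse 1) and Nap1l5 (1.03 and 1.02) in Sst-rich spots, and for Meg3 in mouse 2 in Cartpt-rich (1.13) and Gal-rich (1.12) spots. The other causes were not tested. Depth limits Magel2 and Peg10, with under 40 UMIs per mouse in every class but the hypothalamic one.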
